A study of Drosophila melanogaster with 12 samples.

Results

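RNA polymerase II (Pol II) was located on the genome of mock-treated Drosophila Kc167 cells by ChIP-seq. All 5905 intervals of the authors' Pol II list were taken, out of the 10867 intervals that the 3 lists of the series hold. Kc167 is a cell line of embryonic origin, labelled female and known for properties of hemocytes, the blood cells of the fly. Mock treatment was nucleofection with neither dsRNA nor siRNA. Chromatin was fixed with formaldehyde and precipitated with antibody 8WG16, and the 2 libraries were pooled and called in broad mode against mock input, chromatin sequenced without precipitation. The other 10 of the 12 libraries were mock and LaminB knockdown inputs and Argonaute libraries, and no Pol II list of knockdown cells was analysed here. Because the list is 1 pooled call, none of its values has a replicate error and no test between conditions was possible. The list gives positions only, so neither read depth nor the strength of a call is known. The 95% Wilson intervals given with shares cover counting error only, and neighbouring domains are not independent.

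Pol II transcribes all protein-coding genes and many noncoding RNA genes, including most small nuclear RNAs, while transfer RNA and U6 genes belong to RNA polymerase III and the large ribosomal RNAs to RNA polymerase I. Antibody 8WG16 was raised against the heptad repeats of the C-terminal domain of the largest subunit and prefers repeats that are not phosphorylated, the form that enters promoters. In Drosophila cells Pol II often halts just downstream of the transcription start site (TSS) before it moves into the gene, and heat shock genes are the classical example. Housekeeping promoters of the fly commonly carry the DNA replication-related element (DRE), which the factor DREF binds, or the element known as motif 1, while TATA boxes are typical of regulated and tissue-specific genes.

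Before the values, sites of these 3 elements are shown from promoters that lay under the 25 widest domains. Of the motifs searched, their shares differed most between coding genes with and without a domain. Each sequence reads 5′ to 3′ on the strand of its gene (RefSeq genome, assembly dm6), and capitals mark the element, either the DRE (TATCGATA, the same on both strands), motif 1 (GGTCACACT or its reverse complement AGTGTGACC) or the TATA box (TATAAA, sense strand only).
eIF4A: ggcgatcgatcTATCGATAgtcgctaatgt
mei-38: gcgcgcagagcTATCGATAagtatcgcgag
Hsp83: aactctggaaaTATCGATAgtctggtggag
DnaJ-1: atcggttagcaTATCGATAttgacattcgc
Sld5: tgcttttgtgaTATCGATAacggttagacg
RpL34a: tgttttgaaatTATCGATAgcaattaatat
sta: actgattctcAGTGTGACCgctctgcgtc
Usp47: aaactttgccAGTGTGACCgtaagaccaa
scu: gcgcacatacGGTCACACTgcacggtttc
Hsp67Bc: ctcttccgtctcTATAAAagggcgcagaca
CG4461: cagtcggccatcTATAAAagaactgacggc
alphaTub84B: ctccggtgcctaTATAAAgcagcccgcttt

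Each position below is that of the whole printed sequence, element and flanks together. The DRE of eIF4A lay within 2L:5981701-5981730 on the plus strand, where the element began 52 bp upstream of the TSS. That of mei-38 was at X:1477026-1477055, and the neighbouring Rab27, transcribed the other way, has the same DRE in its promoter. The remaining DREs were those of Hsp83 at 3L:3192776-3192805, DnaJ-1 at 3L:5752243-5752272, Sld5 at 3R:26056623-26056652 and RpL34a at 3R:26059292-26059321. The Sld5 site also lay in the promoter window of CG14543, another divergent neighbour. Motif 1 was read at X:1483407-1483435 for sta, 3L:5752905-5752933 for Usp47 and X:18091259-18091287 for scu. The TATA boxes were at 3L:9372508-9372537 for Hsp67Bc, 3L:9375384-9375413 for CG4461 and 3R:7086562-7086591 for alphaTub84B, all at 20 to 34 bp before the TSS. Of the 71 coding genes whose most used annotated TSS lay under 1 of the 25 widest domains, 14 (19.7%) had a DRE, 5 (7.04%) had motif 1 and 6 (8.45%) had a TATA box. Over all coding genes with a domain at that TSS the shares were 16.6%, 12.5% and 2.45%. The shares of motif 1 and the TATA box under the 25 widest rest on counts of 5 and 6. Genes under a shared domain are not independent, and the TATA box genes CG4456, CG4461 and Hsp67Bc lay under the same one. Under the widest 10% of domains motif 1 was at 10.8% (9.11 to 12.8%) and the TATA box at 3.30% (2.39 to 4.53%).

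Pol II domains were short and took up little of the genome. The 5905 domains covered 5003276 bp, or 3.64% of the 138 Mb of the 7 chromosomes, with 42.9 domains per Mb or 1 domain for every 23.3 kb. The median width was 642 bp (95% interval of the median 627 to 660 bp), and 25% of domains were at or below 404 bp and 25% at or above 1101 bp. The narrowest had 147 bp and the widest 7856 bp, a domain over chic and eIF4A.

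Most domains were narrow, and a few wide ones held much of the sequence. There were 719 domains (12.2%) under 300 bp and 2038 (34.5%) from 500 bp to under 1 kb. Another 1412 (23.9%) spanned 1 kb to under 2 kb and held 38.1% of all covered bp. Only 328 domains (5.55%) reached 2 kb, and these held 18.2% of the covered bp, while 28 reached 4 kb. The widest 10% of domains, 590 in number, accounted for 27.5% of the covered bp, more than the 24.0% in the narrowest 50%. The widest 1% alone, 59 domains, held 5.00%.

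Most domains lay on a TSS. At least 1 annotated TSS was under 5058 of the 5905 domains (85.7%, 84.7 to 86.5%), which held 92.1% of the covered bp. The share rose with width, from 54.5% of domains under 300 bp (50.9 to 58.1%) through 79.97% of those from 300 to 500 bp and 91.5% of those from 500 bp to 1 kb, to 97.9% of those of 2 kb or more (95.7 to 98.96%). How much of this rise comes with width alone was not tested. Counting only the 5′-most TSS of each gene lowered the overall share to 70.7%.

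**Figure D1:**
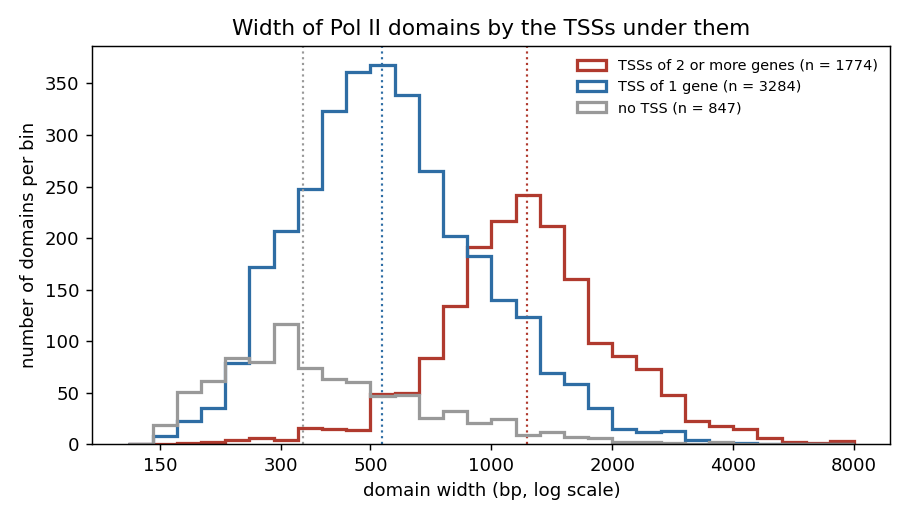
Number of Pol II domains (y axis) by width in bp (x axis, log scale) for domains over TSSs of 2 or more genes, over the TSS of 1 gene and over no TSS, with a dotted line at the median of each class. Domains over no TSS peaked at the narrow end (median 340 bp), domains over 1 gene's TSS had a median of 535 bp, and those over more genes formed the wide end.

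The number of promoters under a domain went with its width. A TSS of exactly 1 gene lay under 3284 domains, with a median width of 535 bp. A total of 1501 domains covered TSSs of 2 genes and had a median of 1167 bp, and 273 covered those of 3 or more genes and had a median of 1911 bp. The largest number of genes under 1 domain was 10, in 2 domains. Of domains under 300 bp, 2.09% covered TSSs of 2 or more genes, compared with 83.8% of those of 2 kb or more. A wider interval meets more TSSs by its length alone, and that part was not tested.

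Domains over TSSs of 2 genes mostly lay over divergent promoters, where a pair of genes on opposite strands starts back to back. Of the 1501 domains with TSSs of 2 genes, 1274 (84.9%) were of this arrangement, with a median width of 1188.5 bp. The genes lay on the same strand in 147 domains (median 931 bp), and they faced or overlapped each other on opposite strands in 80 (median 878 bp). Domains also reached gene ends as they widened. A transcript end was under 1.25% of domains shorter than 300 bp and under 58.2% of those of 2 kb or more. Here too the part of width alone was not tested.

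Around a TSS the domains leaned into the gene. For 2804 domains over the TSS of 1 gene and touching no other gene, the domain extended a median of 384 bp downstream (quartiles 272 and 535 bp) and 112.5 bp upstream (67 and 185 bp) of the 5′-most TSS under it, a ratio of 3.41. The downstream side was the longer in 2579 of the 2804 (92.0%, 90.9 to 92.9%). Only 198 reached 1 kb or more downstream and 14 reached 1 kb or more upstream. Domains that reached a neighbouring gene upstream were left out by this choice, while reach within the gene itself was not limited. Measuring from the 5′-most TSS under the domain also lengthens the downstream side. The part of both choices in the ratio was not tested.

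Gene by gene, with neighbours included, the lean into the gene held close to the TSS only. Among 5832 coding genes with a domain over their 5′-most TSS, 92.7% were still covered 200 bp downstream and 56.0% at 400 bp, but 27.3% at 600 bp and 12.7% at 1 kb. Upstream, 62.8% were covered at 200 bp, less than downstream, but 39.3% at 600 bp and 17.1% at 1 kb, more than downstream. Domains of neighbouring genes are counted in these shares. In the 1887 such genes of 5 kb or more, where positions downstream stay inside the gene, coverage fell to 11.3% at 1 kb, 4.03% at 2 kb and 2.44% at 5 kb. Coverage at any 1 position inside a long gene was low, although genes of 50 kb or more with a TSS domain held a median of 1.5 domains and up to 8.

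**Figure D2:**
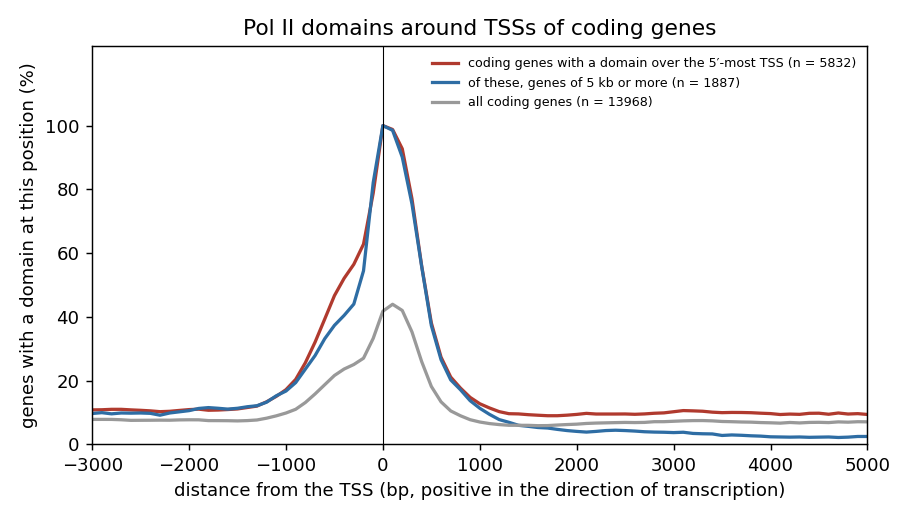
Share of coding genes with a Pol II domain (y axis, %) at each distance from the 5′-most TSS (x axis, bp, positive downstream), for genes with a domain over that TSS, for those of them of 5 kb or more, and for all coding genes. Coverage dropped within 1 kb on both sides, to 12.7% downstream in genes with a domain, and to 2.44% at 5 kb in the long genes.

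By sequence class, 5′ untranslated regions (5′ UTRs) stood apart. They made up 2.98% of the genome and 30.3% of the covered bp, a ratio of 10.2, and 37.0% of all 5′ UTR bp lay under a domain. Coding sequence made up 26.2% of covered bp against 16.6% of the genome. Noncoding exons made up 2.31% against 1.74%. The remaining classes were lower in the domains than in the genome, introns at 22.6% against 42.2%, sequence outside genes at 16.4% against 31.6%, and 3′ UTRs at 2.23% against 4.81%. Where annotations overlapped, a base was counted once, as coding sequence before 5′ UTR, 3′ UTR, noncoding exon and intron.

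The 847 domains with no TSS under them were the narrowest class, with a median of 340 bp. Of these, 675 lay inside a gene, 28 over a transcript end and 144 outside annotated genes. Their median distance to the nearest TSS was 1094 bp, 41.8% lay within 500 bp of one, and 20.7% were more than 5 kb away. The widest inside a gene had 3685 bp and lay at 3R:16234159-16237843 within tara, a gene of 34.7 kb that held 6 domains of which 5 were over no TSS and 1 over its own.

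Some long genes held many separate domains. Svil, which encodes a supervillin-like actin-binding protein, held 8 domains in 122 kb, of which 6 were over its own TSSs. Tlk, a tousled-like kinase gene of 69.8 kb, also held 8, but 5 of them were over no TSS. Eip75B, a nuclear receptor gene of the ecdysone response with 7 annotated TSS positions, held 6 domains, 3 over its own TSSs and 3 over none. In bun 5 of 6 domains were over its own TSSs, while in brat 4 of 6 were over none.

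Where the TSSs of a gene lay far apart, domains mostly left at least 1 of them uncovered. Of 1752 coding genes whose TSSs spread over 1 kb or more, 1208 had a domain over at least 1 TSS. In 1012 of the 1208 (83.8%) the domains covered some TSSs and not others, and in 196 they covered every TSS. A spread of 1 kb exceeds the median domain width of 642 bp, and 1 uncovered TSS was enough to place a gene among the 1012. At least 2 separate TSS domains were found in 354 genes (29.3%), and the 5′-most TSS was covered in 883 (73.1%).

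Counted by gene, 6778 of 18277 genes had a domain over a TSS, a background of 37.1% (36.4 to 37.8%), and 7459 (40.8%) had a domain anywhere in the gene body. Among protein-coding genes 6394 of 13968, or 45.8% (45.0 to 46.6%), had a domain over a TSS. Coding genes with such a domain were longer, with a median length of 3179.5 bp against 1610.5 bp without, and 37.8% of them had 2 or more annotated TSS positions against 16.9%. The part of the number of TSS positions in this difference was not tested. By length, the share was 19.1% below 1 kb, 38.5% from 1 to 2 kb, 55.7% from 2 to 5 kb and 65.0% from 5 to 10 kb, and 62.6% at 50 kb or more.

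The covered part of a gene went the other way. Coding genes below 1 kb with a TSS domain had a median of 69.4% of the gene body covered, compared with 14.9% at 2 to 5 kb and 0.907% at 50 kb or more. Across all coding genes with a TSS domain the median was 14.9%, and 4470 (69.9%) were covered over less than 25% of their length. There were 327 genes covered over at least 90%, with a median length of 902 bp.

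Among noncoding genes, small nuclear RNA genes had the largest share with a domain. Of 32 small nuclear RNA genes, 19 (59.4%) had a domain over the TSS, and the median domain there had 890 bp over genes with a median length of 154 bp. All 19 were among the 26 genes known to be transcribed by Pol II (73.1%, 53.9 to 86.3%), led by snRNA:U4:39B (1291 bp), snRNA:U2:34ABa (1233 bp) and snRNA:U5:63BC (1218 bp). The 6 genes of RNA polymerase III, those for U6, U6atac and 7SK, had none, which leaves an interval of 0 to 39.0%. Of these 6, 3 were identical to another member over their middle 100 bases (or the whole gene where shorter), as were 8 of the 26 Pol II genes, 2 of them without a domain. Of 290 transfer RNA genes 6 (2.07%, 0.952 to 4.44%) had a domain, with 2 of these 6 sharing it with TSSs of coding genes and 4 lying under domains with no coding TSS. Domains were over the TSS of 65 of 269 snoRNA genes (24.2%), 282 of 3289 other noncoding RNA genes (8.57%), 12 of 330 pseudogenes and none of 99 ribosomal RNA genes. Ribosomal RNA, many transfer RNA and some small nuclear RNA genes are repeated, and reads without a unique place were removed before calling, so a missing domain there cannot be read as missing Pol II.

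Ribosomal protein, chaperone and cytoskeletal genes were among those under the widest domains. Each of the 25 widest, from 7856 to 4134 bp, covered TSSs of at least 2 genes, and 18 of the 25 also covered a transcript end. A ribosomal protein TSS was under 7 of them (84 of all 5905 domains), a TSS of a heat shock or cognate gene under 3 (10 of all) and one of an actin, tubulin or actin regulator gene under 3 (15 of all). The next in order, of 4077 bp, was over the TSS of Hsc70-3 alone, which encodes the Hsp70 chaperone of the endoplasmic reticulum.

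The widest, 2L:5976608-5984463, joined the divergent genes chic, which encodes the actin-binding protein profilin, and eIF4A, the helicase of translation initiation. The second, X:1476441-1484112, had 7672 bp and TSSs of 7 genes, with mei-38, a spindle gene, rush, sta, which encodes ribosomal protein SA, and 2 snoRNA genes wholly inside it. The third, 3L:3192185-3199811, spanned 7627 bp and all of Hsp83, the fly Hsp90 gene, with CG32276 and CG14966. Pgk, a glycolytic enzyme gene, and Bacc shared the fourth (2L:2747901-2754317, 6417 bp), which covered 83.5% of Pgk.

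A small heat shock gene cluster carried the fifth, 3L:9371757-9377740, with 5984 bp over CG4456, Hsp22, Hsp26 and CG4461 in full and the TSS of Hsp67Bc. Translation genes made up the sixth, 2R:24056896-24062525 (5630 bp), which held eEF5, RpL12 and RpL39 whole. Both cytoskeletal genes that followed were also nearly covered. Act5C, a cytoplasmic actin gene, lay under X:5899347-5904621 (5275 bp) for 82.9% of its length, and alphaTub84B, a major alpha-tubulin gene, lay whole under 3R:7085487-7090670 (5184 bp). Between them in width came 3L:16579514-16584721 (5208 bp), with Smn, needed to assemble splicing particles, and Rpn12, a proteasome subunit gene. The tenth, 3L:5750014-5754827 (4814 bp), held DnaJ-1, an Hsp40 chaperone gene.

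The domains ranked 11 to 25 were led by RhoGAP16F, x16 (a splicing factor), CG7215, CG15784, ATPsynC (a subunit of mitochondrial ATP synthase), HmgZ (a chromatin protein), l(1)G0320, RpLP0, Hsc70-4 (the main cytosolic Hsp70 cognate), Sld5 (a replication factor), RpL3, SdhB (a subunit of succinate dehydrogenase), CCT5 (a chaperonin subunit), Sry-delta and Fer1HCH (the ferritin heavy chain). Their widths ran from 4787 to 4134 bp. RpL3, ATPsynC, CG7215, CG15784, RpLP0, Sld5, SdhB and Sry-delta lay wholly inside their domains. Several had a ribosomal protein gene as neighbour under the same domain, RpL32 beside Sry-delta, RpL34a beside Sld5 and RpS28b beside l(1)G0320.

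**Figure D3:**
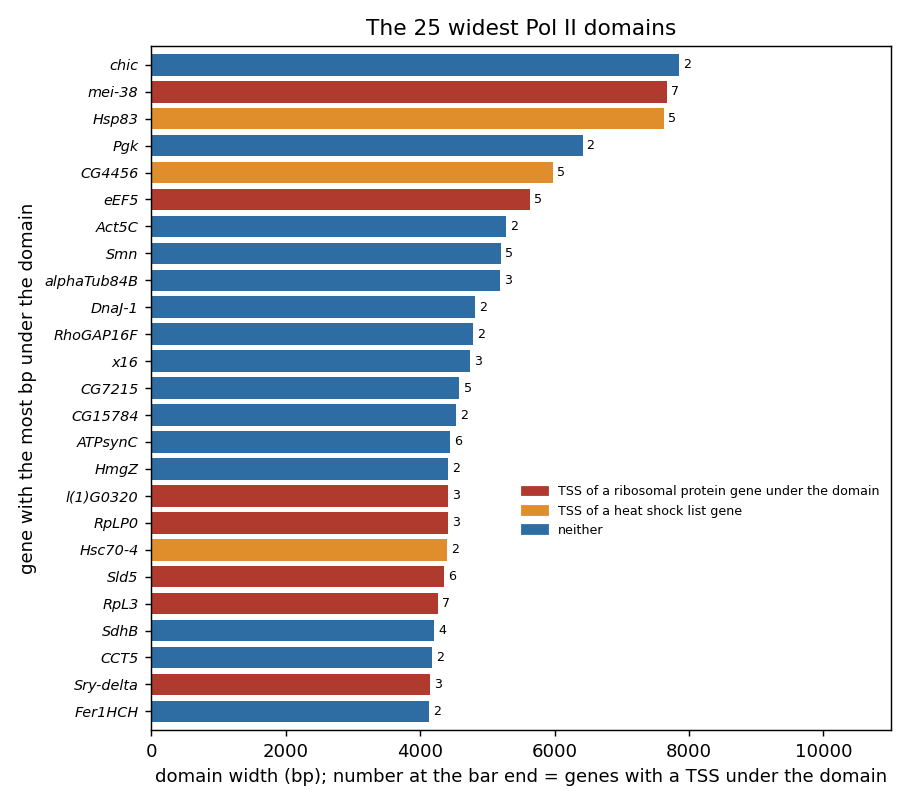
Width in bp (x axis) of the 25 widest Pol II domains, each named by the gene with the most bp under it, with the number of genes whose TSS was covered at the bar end. Widths dropped from 7856 bp (chic) to 4134 bp (Fer1HCH), while 7 bars (red) carry a ribosomal protein TSS and 3 (orange) a heat shock list TSS.

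Gene groups were then read against the backgrounds of 37.1% for all genes and 45.8% for coding genes. Genes for the translation machinery were nearly all marked. Among cytoplasmic ribosomal protein genes 86 of 93 (92.5%, 85.3 to 96.3%) had a TSS domain, and their domains had a median of 1917 bp, compared with 944 bp over all coding genes with one. A median of 95.7% of the gene body was covered. The median ribosomal protein gene was 1318 bp long. The list follows gene symbols and counts RpL7-like, RpL24-like and RpLP0-like among the 86, with the function of their proteins not checked. The widest domains of the group were those of sta (7672 bp), RpL12 and RpL39 (both in the 5630 bp domain) and RpS28b (4414 bp).

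The 7 without a domain were RpL10Aa, RpL22-like, RpL37-2, RpS10a, RpS19b, RpS28-like and RpS5b. Each was paired by symbol with another listed gene, and that gene had a TSS domain in 7 of 7 cases, from RpL37-1 with 889 bp to RpS28b with 4414 bp. Over the whole list the share with a domain was 92.5%. Some other pairs had a domain at both genes, such as RpS14a with RpS14b and RpL34a with RpL34b. RpL10Ab had 3583 bp, RpS5a 2633 bp, RpL22 2505 bp, RpS19a 1677 bp and RpS10b 1290 bp. None of the 93 genes shared its middle 100 bases with another member.

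Translation factors followed, with 31 of 34 genes marked (91.2%, 77.0 to 97.0%) and a median domain of 1368 bp. The exceptions were eEF1alpha2, eIF4B and eIF4G1. Glycolysis was complete at 12 of 12 genes, with Pgk (6417 bp), Eno (1782 bp), Pgi (1693 bp) and Gapdh1 (1619 bp) the widest. Of the Pol II subunits and pausing factors 22 of 24 had a TSS domain, led by Nelf-E (3508 bp), a subunit of the pausing complex NELF, and Polr2C (3142 bp). The domain of Nelf-E covered TSSs of 4 genes, with all of RpL14 and 21.1% of Nelf-E, and that of Polr2C covered TSSs of 5 genes. Polr2E and Polr2L had a domain in the gene body only, over 45.5% and 92.4% of their length.

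Cytoskeletal genes were marked in part. Domains lay over 13 of 21 genes, with chic (7856 bp), Act5C (5275 bp), alphaTub84B (5184 bp) and betaTub56D (2700 bp) the widest. Others were narrow, such as gammaTub23C (886 bp), betaTub60D (736 bp) and alphaTub84D (459 bp). The actins Act57B, Act79B, Act87E and Act88F, known from muscle, had none. The germline tubulins alphaTub67C, betaTub85D and gammaTub37C, and alphaTub85E, also had none.

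Heat shock genes had the largest median domain width of the 19 lists, and no label describes a heat treatment. A TSS domain was found at 13 of 22 genes (59.1%, 38.7 to 76.7%), and the median was 3418 bp. A further symbol of the list, Hsp67Bb, matched no gene name in the annotation and was not counted. Hsp83 led with 7627 bp, Hsp22, Hsp26 and Hsp67Bc shared 5984 bp, Hsc70-4 had 4399 bp and Hsc70-3 4077 bp. Hsp23 and Hsp27 shared a domain of 3418 bp, and Hsp68, the only gene with a TSS under its domain, was covered whole by 3185 bp. Hsp70Ba, of the highly similar Hsp70 copies on 3R, had 724 bp at its start, covering 13.2% of the gene. Hsp70Aa, Hsp70Ab, Hsp70Bb, Hsp70Bbb and Hsp70Bc had no TSS domain, and Hsp70Bb had a domain in the body over 11.8% of its length. Of the 6 Hsp70 copies 2 were identical to another over the middle 100 bases, and the part of lost reads there was not tested. Hsc70-1, Hsc70-2, Hsp60B and Hsp67Ba had none either.

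The replication-dependent histones showed the limit of the list. None of 111 histone genes had a TSS domain, and 108 of the 111 (97.3%) were identical to another member over their middle 100 bases. Reads without a unique place were removed, so these genes are not interpreted.

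Markers of blood cells were mostly marked, as is known of the line. A domain lay at 14 of 19 hemocyte genes (73.7%, 51.2 to 88.2%). The widest were those of srp (2170 bp), the GATA factor of blood cells, its partner ush (1934 bp), Pxn (1339 bp), an extracellular matrix peroxidase, and crq (1215 bp), a scavenger receptor. The median over the 14 was 710 bp, less than the 944 bp over all coding genes with a domain, and the narrowest, at eater, had 315 bp. The 5 without one were He, NimC1, PPO1, PPO2 and gcm2. PPO1 and PPO2 are prophenoloxidases known from crystal cells, while the related PPO3 (860 bp) and lz (322 bp), the crystal cell factor, had a domain. Markers of other cell types were rarely marked, 1 of 12 neuronal genes (elav, 1036 bp), 3 of 12 muscle genes (Mef2, 2375 bp, wupA and Mlc2), 3 of 18 male germline genes (bol, twe and mia) and 0 of 17 female germline and follicle genes. Several of these domains covered TSSs of more than 1 gene, 2 genes for srp, crq, PPO3 and elav and 3 for Mef2.

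Gene families of differentiated tissues were nearly empty. Only Gr94a and Gr61a of 179 chemoreceptor genes had a TSS domain (1.12%, 0.307 to 3.98%), and both domains covered TSSs of 2 genes. Of 70 cuticle protein genes only Cpr73D had one (615 bp), again over TSSs of 2 genes.

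Ecdysone response genes were mostly marked but with narrow domains. Kc cells are known to respond to this steroid hormone. A TSS domain was found at 14 of 17 genes (82.4%, 58.97 to 93.8%), with a median domain of 569.5 bp and a median of 1.72% of the gene covered. The median length of the listed genes was 39895 bp. Of all coding genes of 10 to 50 kb, 61.5% (59.1 to 63.8%) had a TSS domain. Their domains had a median width of 739 bp, and a median of 3.31% of the gene was covered. The part of gene length in the values of the list was not tested. The receptor gene usp had 1543 bp, its partner EcR 701 bp in 3 separate TSS domains, ftz-f1 699 bp and Eip74EF 697 bp. The salivary glue genes Sgs3, Sgs7 and Sgs8 had none. Hox genes were marked at 2 of 8, Abd-B with 285 bp and Dfd with 215 bp.

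Of 10 genes of dosage compensation and sex determination 7 had a TSS domain, from msl-2 (688 bp) and Sxl (537 bp), the switch gene of female identity, to tra (413 bp). The noncoding RNA genes roX1 and roX2, which are known to be active in males, had no domain. The remaining gene without a TSS domain, dsx, had a domain in the gene body.

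**Figure D4:**
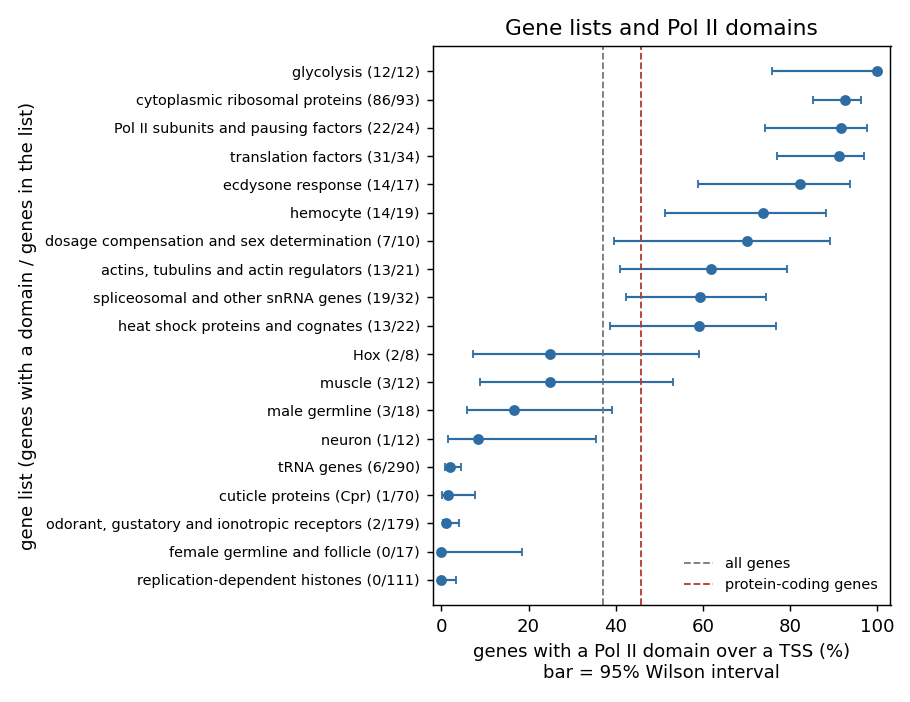
Share of genes with a Pol II domain over a TSS (x axis, %, with 95% Wilson intervals) in 19 gene lists (y axis), with dashed lines at 37.1% for all genes and 45.8% for protein-coding genes. Housekeeping lists sit at the right, up to 12 of 12 for glycolysis, and chemoreceptors (2 of 179), cuticle proteins (1 of 70) and histones (0 of 111) at the left. Reads without a unique place were removed, so the repeated histone genes are not interpreted.

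The frequency of some promoter motifs differed between coding genes with a domain and those without. For each of 13968 coding genes the window from 250 bp before to 50 bp after the TSS used by most annotated transcripts (the most used TSS) was searched on both strands for the DRE, motif 1, the E-box CAGCTG and the GAGA repeat GAGAGA. The TATA box was searched on the sense strand from 45 to 20 bp before the TSS, the initiator TCAGT and the TCT initiator CTTTT within 6 bp of it, and the pause button CGGACG from 15 to 40 bp after it. None of these strings contains another. At this 1 position per gene 5964 genes had a domain and 8004 did not.

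A DRE was found in 9.23% of all promoters, in 16.6% of those with a domain (15.7 to 17.6%) and in 3.72% of those without (3.33 to 4.16%). Motif 1 was found in 6.06% of all, 12.5% with a domain (11.7 to 13.3%) and 1.29% without (1.06 to 1.56%). The TATA box went the other way, at 8.14% of all, 2.45% with a domain (2.09 to 2.87%) and 12.4% without (11.7 to 13.1%). The E-box was at 22.9% with and 13.9% without, out of 17.7% of all. Smaller differences were seen for the pause button (2.00% and 0.825%, with 1.32% of all) and the initiator (6.539% and 8.50%, with 7.66% of all). The GAGA repeat was at 13.1% and 12.4%, with 12.7% of all, and the TCT initiator at 1.04% and 1.20%, with 1.13% of all.

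Within the marked genes, some motifs differed with width. Wide domains more often covered TSSs of several genes, and the part of such sharing in these differences was not tested. The initiator was at 10.8% of promoters under the narrowest 50% of domains and 4.31% under the widest 10%, the GAGA repeat at 17.0% and 10.8%, and the pause button at 2.90% and 1.19%. The DRE was at 13.1% and 17.3%. The intervals overlapped for motif 1 (11.2% and 10.8%), the TATA box (2.19% and 3.30%), the E-box (22.98% and 19.8%) and the TCT initiator (0.711% and 1.56%). The ribosomal protein genes with a domain had a DRE in 28 of 86 promoters (32.6%, 23.6 to 43.0%), and 4 of the 13 marked heat shock genes had a TATA box. These matches are to letters only and do not show that a factor was bound.

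**Figure D5:**
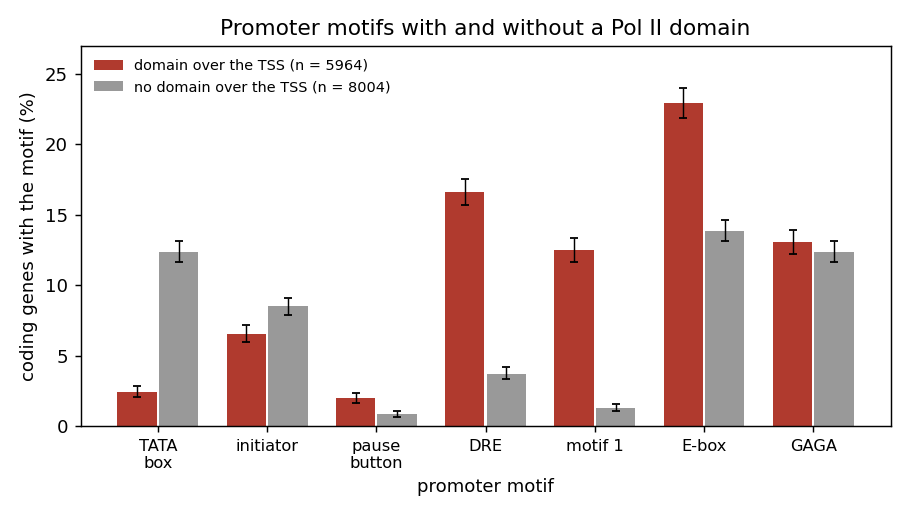
Share of coding genes with each promoter motif (y axis, %, with 95% Wilson intervals) for 5964 genes with and 8004 genes without a Pol II domain over the most used TSS (x axis, motif). The DRE (16.6% against 3.72%) and motif 1 (12.5% against 1.29%) were higher with a domain, and the TATA box (2.45% against 12.4%) was lower.

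Domains were spread unevenly along the chromosomes. The closest neighbours were 589 bp apart and the median gap was 6.86 kb (quartiles 2.71 and 20.2 kb). The domains were called in broad mode and merged by the authors, and the part of the calling in the smallest gaps was not tested. Gaps of 1 kb or less separated 388 of 5898 neighbouring pairs (6.58%, 5.97 to 7.24%), 41.4% were within 5 kb, and 269 gaps exceeded 100 kb. When domains within 1 kb were grouped, 747 (12.7%) fell into 359 clusters and 5158 stood alone. When domains within 5 kb were grouped, 3794 (64.3%) fell into 1351 clusters of up to 11.

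At 1 kb, only 2 clusters held 4 domains. The first, 2R:12173099-12181080, covered TSSs of Oda, CCT5, EndoG, CG8860 and wash over 7.98 kb with 71.7% of it under domains. The second, 4:1028664-1033286, lay over CG11076 and ATPsynbeta, the latter a subunit of mitochondrial ATP synthase. Among clusters of 3 domains the longest were 3L:3218625-3226392 with hob, nSMase, RpL28, eIF1 and Larp4B, 3R:7074026-7080493 with Ufl1, CG1943 and Ref1, and 3L:15157390-15163692 with Msh6, Prp31, CG7011 and CG6878. At 5 kb the largest cluster had 11 domains over 33.4 kb (2R:23840122-23873477, 13 genes from shu to ken), and the cluster with the small heat shock genes (3L:9357525-9384974, 8 domains) was covered over 55.4% of its 27.4 kb.

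The longest gaps lay on 3R, 3L, the X and 2R. On 3R, 1256 kb without a domain separated Myo81F from spok and held 1 coding gene, Pzl, and 978 kb lay between domains within Myo81F itself, a giant gene. On 3L, 629 kb separated Dbp80 from l(3)80Fj and held eIF4B, 1 of the 3 translation factors without a TSS domain. A gap of 596 kb on the X held 21 coding genes and 10.8% undetermined bases. On 2R, 517 kb lay between BckdhB and CG17684. Of 131 windows of 1 Mb on 2L, 2R, 3L, 3R and the X, the median held 46 domains and the fullest 83, and 11 windows held fewer than 10. Those 11 windows lay at the start of 2R and 3R and near the end of 3L, and each held 0 to 7 coding genes. Reads without a unique place were removed before calling, and their part in the gaps and empty windows was not tested.

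The fourth chromosome and the Y held the fewest domains for their length. The major arms had 43.3 domains per Mb on 2L, 48.6 on 2R, 40.3 on 3L, 43.0 on 3R and 47.0 on the X. Chromosome 4 had 36 domains, or 26.7 per Mb, with a median width of 407.5 bp, and the Y, which female cells lack, had a single domain of 246 bp outside annotated genes. The density on the X was 1.08 times that of the major autosomal arms (1.01 to 1.15), but 0.996 times with only the domains at or above the median width. Per coding gene, a TSS domain was found at 53.1% on the X (51.1 to 55.2%), compared with 41.0 to 46.8% on the major autosomal arms, 19 of 80 on chromosome 4 (23.8%, 15.8 to 34.1%) and 0 of 23 on the Y.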

How the data were processed

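Per the study's methods and the submitters' processing notes, reads were trimmed (cutadapt 1.10) and mapped to dm6 (Bowtie2 2.2.8) by the authors, who removed reads under a mapping quality of 20 with SAMtools 1.3.1 and duplicates with Picard 2.5.0 and called broad domains with MACS2 2.1.1.20160309 on pooled libraries and inputs. Pooled domains found in at least 1 replicate were kept and merged with bedtools 2.25.0. The deposited Pol II file holds positions only (dm6), with no count, score or p-value. The other 2 deposited lists were used only to count intervals. Positions are printed counting from 1.

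From these positions, widths, gaps and overlaps (at least 1 bp) with genes of the Ensembl 115 annotation were computed with Python 3.11.15 and scipy 1.17.1, and figures with matplotlib 3.10.9. Annotated transposon insertions were left out. This annotation is on the same assembly but later than the authors'. Functions were tested on simulated data.

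The 19 gene lists and the rules were chosen with earlier results of these data known. Named were the gene with the most bp under each of the 25 widest domains (with those wholly under the 10 widest), genes at the longest clusters and gaps, and for each list up to 4 members with the widest domain and up to 4 without one. Other genes, the motifs, the printed promoters, the split of snRNA genes by polymerase and the search for gene copies were chosen after their values were seen. Of the list symbols 8 matched no gene name in the annotation and were not counted: eIF5A, Hsp67Bb, Nelf-B, Mst35Ba, Mst35Bb, nos, Eip55E and Eip71CD.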

Additional observations from a re-analysis of the deposited data

How the results depend on the processing

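The 13 results were recomputed under 57 alternatives, of which 29 stayed within the interval of the reported value (or its rounding, or 1.5 times for counts) and 28 moved. Of the 29, 13 came from merging domains within 500 bp, which could change nothing since the smallest gap was 589 bp, and 16 from other settings. No paired analysis was possible because the libraries were pooled into 1 list, and leaving out a replicate was likewise not possible.

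With only domains at or above the median width, 2959 domains remained, with a median of 1101 bp, 2.77% of the sequence covered, 22.2% of covered bp in the widest 10%, 3.79% of neighbours within 1 kb, an X to autosome ratio of 0.996, 94.96% over a TSS, 1.18% outside genes, 25.6% of genes with a TSS domain, 27.4% with a domain in the body, 19.5% of the body covered and a downstream to upstream ratio of 3.76. On the 5 major arms 3.76% of the sequence was covered and the ratio was 3.40. With protein-coding genes only, 84.2% of domains were over a TSS and 3.73% outside genes, 45.8% of genes had a TSS domain and 49.6% a domain in the body, and a median of 14.9% of the body was covered, against 15.9% over all genes with a TSS domain. TSSs widened by 500 bp gave 91.7% of domains and 42.1% of genes, and the 5′-most TSS alone 70.7% and 34.0%. Reduced to its central bp, by construction seldom a TSS, 0.220% of domains and 0.0711% of genes met one, 17.3% of domains lay outside genes, 25.5% of genes had a domain in the body and 0 ribosomal protein genes had a TSS domain. Merging within 1 kb, chosen after seeing the data, left 5517 domains with a median of 685 bp, 87.4% over a TSS and 30.5% of covered bp in the widest 10%.

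Depth, call strength and agreement between the libraries are unknown, so a gene without a domain is one not called at the authors' threshold. Repeated genes cannot be judged.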

Other observations

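Domains were richer in G and C than the genome, with 45.9% against 42.1% of bases. Sequence that the RefSeq genome marks as repetitive made up 12.7% of covered bp and 20.9% of the chromosomes. The marked share was 12.6% in domains over a TSS and 21.3% in the 144 domains outside annotated genes, 13 of which (9.03%) were repetitive over at least 50% of their length, compared with 6 of 5058 over a TSS.

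The widest domain outside annotated genes, 2L:22920269-22924143, had 3875 bp, ranked 31 of all domains and ended 652 bp from the nearest TSS. The next widest, 2R:4270558-4272924, had 2367 bp and lay 27624 bp from one. The median distance over all 144 was 5062 bp.

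On chromosome 4 the widest domain, 1829 bp at 4:506810-508638, lay inside zfh2, a zinc finger homeodomain gene, over no TSS. This gene held 4 of the 36 domains of the chromosome, 1 of them (1696 bp) over its TSS. The ribosomal protein gene RpS3A (1077 bp) and the transcription regulator gene pan (548 bp) were among the marked genes there.

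Of the 6 transfer RNA genes with a domain, the pairs Leu-AAG and Ser-TGA on 2R lay under domains of 686 to 1136 bp that covered no coding gene's TSS.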
